A study of Arabidopsis thaliana with 18 samples.

Results

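The chromosome 4 interval of this Arabidopsis thaliana data set, at 11363351 to 11824750 (TAIR10), holds 850 moderately methylated windows, chosen by their level in wild-type Columbia (Col-wt). A window is 100 bp long and a new one starts every 50 bp. The methylation level is the authors' fraction from 0 to 1, over cytosines of all contexts together. A window was taken when this level was 0.05 or more and under 0.2 in Col-wt, and when at least 10 cytosines lay behind the level in each of the 9 lines. Of the 43887 windows of the series, 9227 lie in this interval and 7237 of these had the cytosines. The 850 members make up 11.7% of the 7237, whereas 428 windows (5.91%), called strong here, were at 0.2 or more in Col-wt and 5959 windows were under 0.05. A further 110 windows of the interval had a Col-wt level in the moderate range and too few cytosines in some line.

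The 9 lines were the epigenetic recombinant inbred lines (epiRILs) 92, 150, 193 and 232, the epiHybrids 92, 150, 193 and 232, each named after an epiRIL, and Col-wt. DNA came from aerial rosette tissue taken 21 to 22 days after sowing, from plants kept under days of 16 h light and 8 h dark, with 2 bisulfite libraries a line. The authors combined the libraries of a line into a single level, so no value of a line has a replicate error, read depth is unknown, and whether the libraries came from separate plants is not stated. EpiRILs of this kind are known to be inbred lines of nearly the same DNA sequence, each with chromosome stretches inherited from a mutant of DDM1, and crossing such a line to Col-wt is known to give its epiHybrid; the labels themselves give only the line names. Each epiRIL is a single inbred line.

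In Arabidopsis, dense methylation in all cytosine contexts marks transposons and their remains, and keeping it needs DDM1, a chromatin remodeller that opens compact chromatin to methyltransferases. Many transcribed genes carry another kind, gene-body methylation. It lies mostly on CG sites inside the transcribed part, is copied at each cell division by the methyltransferase MET1, and is known to persist largely without DDM1. Since all contexts share a value here, a window with methylated CG sites alone would read low, and the kind of methylation in a window was not measured directly.

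The gene types in which the members lay set them apart from the strong windows. Of the 850 members, 756 (88.9%) had their midpoint in a protein-coding gene, against 141 of the 428 strong windows (32.9%) and 5122 of all 7237 windows (70.8%). Pseudogenes held 15 members (1.76%), against 158 strong windows (36.9%). Another 74 members (8.71%) lay in no annotated gene and 5 in other gene types. The genes are those of the RefSeq annotation of assembly TAIR10.1. Few members lay at gene ends: 41 of the 756 in protein-coding genes (5.42%) lay in the outer 10% at either end of their gene, against 892 of all 5122 windows in such genes (17.4%). Of the 141 strong windows in such genes, 3 (2.13%) lay there, so this trait was not particular to the members. The members fell into 272 runs of windows whose starts lay no more than 100 bp apart, of which 72 were single windows, 48 held 5 or more and the longest held 20. Of the members, 341 (40.1%) lay within 500 bp of a strong window, against 20.1% of all windows, and 509 lay farther away.

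Most moderate methylation was still present in the epiRILs. Summed over the 850 members, the level relative to Col-wt was 97.7% for epiRIL 232, 91.0% for epiRIL 150, 85.0% for epiRIL 92 and 71.6% for epiRIL 193. Mean levels were 0.0898, 0.0960, 0.0755 and 0.103 in epiRILs 92, 150, 193 and 232, against 0.106 in Col-wt. The SDs over windows were 0.0598, 0.0613, 0.0576 and 0.0673 in the same order of epiRILs and 0.0396 in Col-wt. EpiHybrids 92, 150, 193 and 232 held 95.8, 94.5, 82.8 and 94.0%, with mean levels of 0.101, 0.0998, 0.0874 and 0.0992. The average over the 4 epiRILs was 86.3 ± 11.1% and that over the 4 epiHybrids 91.8 ± 6.02% (SD, n = 4 lines each). EpiRIL 193 was the lowest of the epiRILs and epiHybrid 193 the lowest of the epiHybrids. The rule picked the windows by their Col-wt level, so every comparison with Col-wt here is a description without a test. When each other line chose the windows, Col-wt held 127, 92.1, 107 and 88.9% of the level of the chooser for epiRILs 92, 150, 193 and 232, and 92.5, 91.6, 118 and 90.8% for epiHybrids 92, 150, 193 and 232.

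EpiRILs 92 and 193 held more of the moderate level than of the strong level, and epiRILs 150 and 232 held less. EpiRILs 92 and 193 were also the lowest in strong windows, and a low strong share itself favours a difference above 0. In the strong windows, whose mean Col-wt level was 0.332, epiRILs 92, 150, 193 and 232 held 64.1, 108, 53.0 and 101%. The moderate minus strong difference was thus 20.9 points in epiRIL 92 and 18.6 points in epiRIL 193, but -16.7 points in epiRIL 150 and -3.40 points in epiRIL 232. A comparison that uses no Col-wt value beyond the choice of windows set each epiRIL against its own epiHybrid. EpiRILs 92, 150, 193 and 232 held 88.7, 96.2, 86.4 and 104% of their epiHybrid in moderate windows, and 62.9, 102, 62.6 and 99.3% in strong ones. The difference was above 0 in 3 of 4 lines and averaged 12.2 ± 15.1 points (SD, n = 4 lines), which did not pass the threshold of 0.05 in an exact permutation test that flips the signs of the lines (two-sided p = 0.375, and 0.375 after Benjamini-Hochberg adjustment over 2 tests). With 4 lines the smallest p this test allows is 0.125. Without line 92 the average was 7.71 points.

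**Figure D1:**
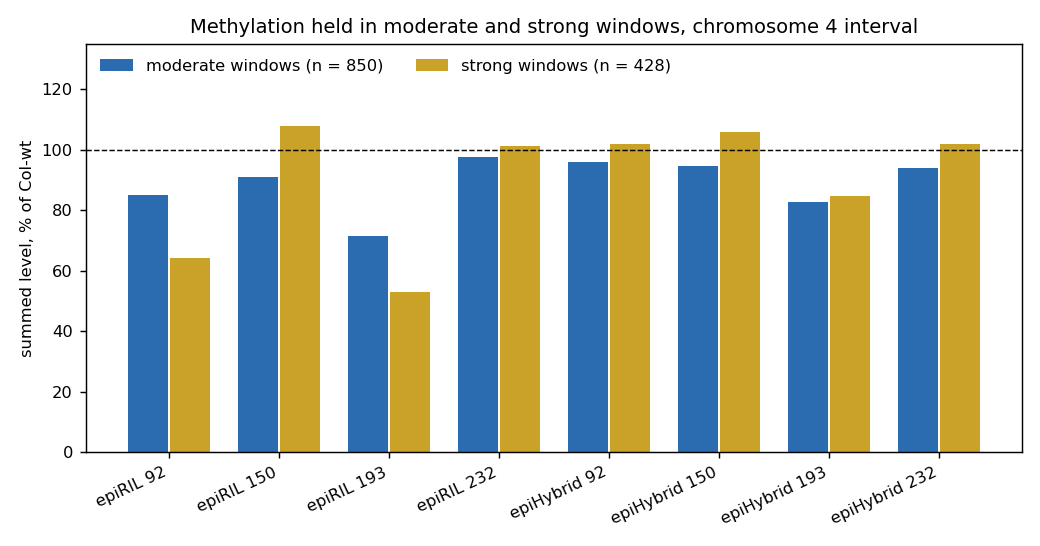
Bars give the summed methylation level as a percentage of Col-wt in the 850 moderate windows (blue) and 428 strong windows (yellow) for each epiRIL and epiHybrid; the dashed line is the Col-wt level. Blue bars are above yellow ones in epiRILs 92 and 193 (85.0 against 64.1% and 71.6 against 53.0%) and below them in the other 6 lines.

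The epiHybrids were above their epiRILs in 3 of 4 lines. The epiHybrid minus epiRIL difference in mean level came to 0.0114 for line 92, 0.00374 for line 150 and 0.0119 for line 193, with line 232 at -0.00392. It averaged 0.00579 ± 0.00747 (SD, n = 4 lines; exact two-sided sign-flip p = 0.375, adjusted 0.375), and was 0.00375 without line 193 and 0.00902 without line 232. Against the mean of epiRIL and Col-wt, epiHybrid 92 was higher by 0.00352, whereas epiHybrids 150, 193 and 232 differed by -0.00103, -0.00310 and -0.00514. In strong windows these differences were 0.0661, 0.00719, 0.0273 and 0.00414, all above 0.

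Loss within the members was uneven over windows. In epiRIL 193 the median window held 83.9% of its Col-wt level although the sum held 71.6%, because 220 windows (25.9%) were at 25% or less while 471 windows were at 75% or more. EpiRILs 92, 150 and 232 had 99, 113 and 106 windows at 25% or less and 511, 608 and 622 at 75% or more. Over all 6070 windows of the interval with a Col-wt level above 0, the share at 25% or less was 31.4% in epiRIL 193 and 26.3, 24.9 and 27.2% in epiRILs 92, 150 and 232. The share at 75% or more was 41.7% in epiRIL 193 and 40.4, 48.7 and 45.2% in epiRILs 92, 150 and 232. Since the rule used Col-wt, nothing is read from those shares. The epiHybrids had 68, 73, 73 and 74 members at 25% or less in lines 92, 150, 193 and 232, against 27.9, 26.1, 26.7 and 25.7% of all windows. The number of near-empty windows in epiHybrid 193 thus lay within the range of the other epiHybrids.

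**Figure D2:**
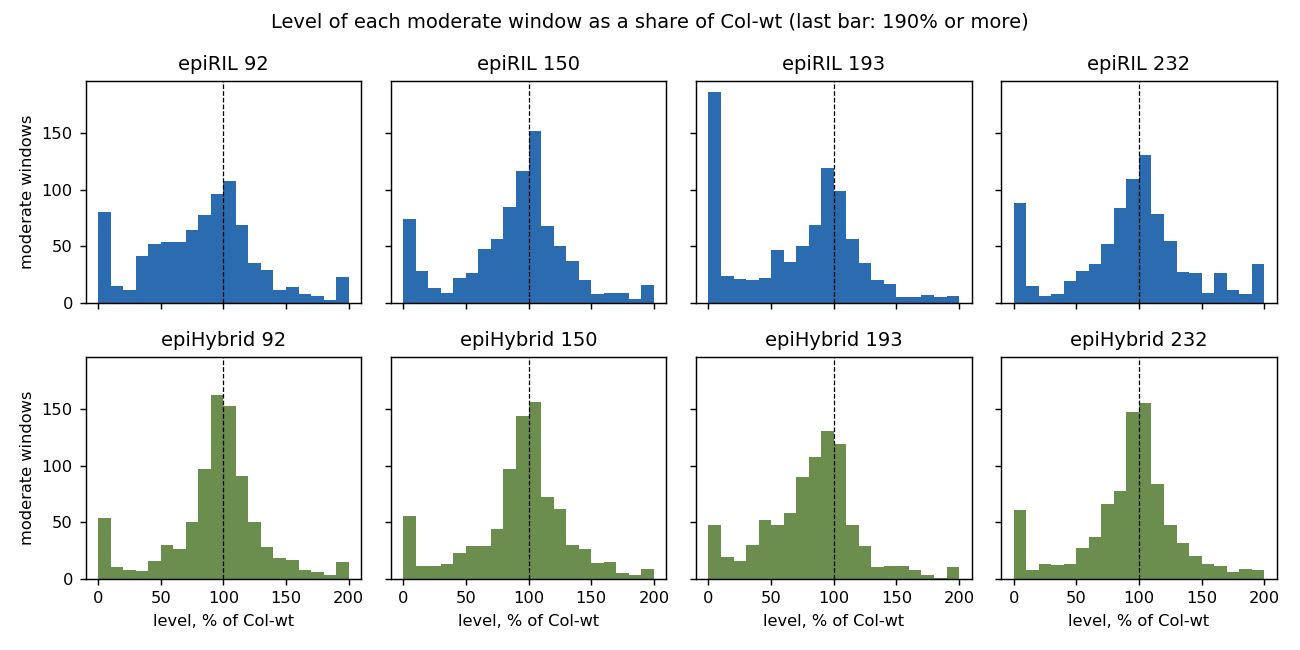
Histograms show, for each epiRIL (upper row) and epiHybrid (lower row), the number of moderate windows by level as a percentage of Col-wt, in steps of 10 percentage points; the last bar collects all higher values. EpiRIL 193 has a peak near 0, with 187 windows under 10%, beside a peak near 100%, and epiHybrid 193 has 48 windows under 10%.

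At 50% of the Col-wt level or less stood 199, 146, 274 and 136 members in epiRILs 92, 150, 193 and 232, against 43.9, 39.5, 45.5 and 43.4% of all windows above 0, and 95, 114, 165 and 107 in epiHybrids 92, 150, 193 and 232, against 41.7, 40, 42.4 and 40.2%. At 150% or more stood 53, 45, 28 and 88 members in the epiRILs (15.6, 16.9, 15.7 and 15.3% of all windows) and 49, 46, 33 and 47 in the epiHybrids (15.1, 16.3, 14.9 and 15.9%). In strong windows, 105, 8, 218 and 14 of 428 were at 50% or less in epiRILs 92, 150, 193 and 232.

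By combination of lines, 517 members (60.8%) were above 50% in all 4 epiRILs, against 25% of all windows, and 494 of the 517 lay in protein-coding genes. Their mean levels were 0.116, 0.115, 0.109 and 0.122 in epiRILs 92, 150, 193 and 232 and 0.110 in Col-wt. A narrower set of 363 members was at 75% or more in all 4 epiRILs (42.7%, against 15.3% of all windows). The next pattern, 86 members at 50% or less in all 4 epiRILs (10.1%, against 14.6% of all windows), had 51 members in protein-coding genes. They read 0.00694 to 0.00753 in the epiRILs, 0.0135 to 0.0151 in the epiHybrids and 0.0861 in Col-wt. EpiRIL 193 alone of the epiRILs was at 50% or less in 75 members (8.82%, close to the 8.09% of all windows). Means there were 0.0983, 0.131, 0.0201 and 0.139 in epiRILs 92, 150, 193 and 232 and 0.117 in Col-wt. EpiRILs 92 and 193 and no other epiRIL were low in 62 members (7.29%, against 4.88% of all windows). There epiRILs 92 and 193 read 0.0395 and 0.00818, and epiRILs 150 and 232 read 0.0999 and 0.108, against 0.107 in Col-wt. The other 12 combinations held 20 members or fewer each.

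The epiHybrids give a second measurement of the windows emptied in epiRIL 193, since no epiHybrid value picked them. In the 220 members at 25% or less in epiRIL 193, epiHybrid 193 read 0.0400, against 0.0742, 0.0711 and 0.0699 in epiHybrids 92, 150 and 232. In the 50 of these members where the other 3 epiRILs were above 50%, epiHybrid 193 read 0.0616, against 0.134, 0.131 and 0.126 in epiHybrids 92, 150 and 232, and epiRIL 193 itself read 0.00573. These 50 were picked as high in the epiRILs that epiHybrids 92, 150 and 232 are named after. The contrast between epiHybrids can thus come in part from that choice, and nothing is read from its size. Col-wt read 0.112 in those 50 members. In the 471 members at 75% or more in epiRIL 193, epiHybrid 193 read 0.110 and the other epiHybrids 0.112 to 0.113. In 100 members epiRIL 92 was above 25% and at most 50%, with epiRIL 92 at 0.0394 and Col-wt at 0.0982. There epiHybrid 92 read 0.0885, against 0.0873, 0.0581 and 0.0866 in epiHybrids 150, 193 and 232, so it was not the lowest epiHybrid. In the 99 members at 25% or less in epiRIL 92, epiHybrid 92 read 0.0227 and the other epiHybrids 0.0203 to 0.0234.

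A subset of 57 of the 86 members low in all 4 epiRILs stood high in Col-wt alone, with all 8 other lines at 50% or less. The 57 are 6.71% of the members, close to the 6.57% of all windows, so nothing particular to the members is read from their number. Col-wt read 0.0939 there and the other lines 0.00517 to 0.00732. Of the 57, 23 lay in no gene, and the median number of cytosines in Col-wt was 28, against 38 in the remaining 793 members. Without them the epiRILs 92, 150, 193 and 232 held 90.0, 96.3, 75.6 and 104% and the epiHybrids 102, 100.1, 87.6 and 99.5% of Col-wt (a set picked with its values already seen). When each other line chose the windows in place of Col-wt, 26 to 77 windows were high in the choosing line alone, a range that includes the 57 of Col-wt. The 26 members in no gene and over 500 bp from any strong window also had little left, with 19.7, 11.5, 14.6 and 11.7% of Col-wt in epiRILs 92, 150, 193 and 232 and 18.5, 16.6, 23.3 and 30.2% in the epiHybrids. The 3 members with the lowest epiRIL mean belonged to this group: those at 11524651 to 11524750 and 11524701 to 11524800 read 0 in all 4 epiRILs and 0.151 and 0.132 in Col-wt, and that at 11594401 to 11594500 read 0 in all 4 epiRILs and, from 12 cytosines, 0.0667 in Col-wt.

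In protein-coding genes the epiRILs held between 74.5 and 108% of the Col-wt level both near strong windows and away from them. The 476 members in protein-coding genes over 500 bp from a strong window held 82.9, 88.0, 75.1 and 94.3% in epiRILs 92, 150, 193 and 232, and 94.1, 95.1, 83.7 and 92.9% in the epiHybrids. The 280 members in protein-coding genes within 500 bp of a strong window held 93.9, 97.1, 74.5 and 108% in the epiRILs. Outside protein-coding genes epiRIL 193 held less, with 26.6% in the 15 members in pseudogenes, 2.41% in the 5 members in other gene types and 54.4% in the 74 members in no gene. EpiRILs 92, 150 and 232 held 68.8, 98.7 and 123% in the pseudogene members and 44.2, 71.6 and 63.6% in the members in other gene types. In the members in no gene every line was below Col-wt. There epiRILs 92, 150 and 232 held 67.2, 82.6 and 71.3%, and the epiHybrids 68.2 to 74.7%. Over the members in protein-coding genes as a whole, epiRIL 193 held 74.9%.

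The 141 strong windows in protein-coding genes held 68.6, 106, 31.7 and 108% in epiRILs 92, 150, 193 and 232, and 1 gene held most of them. After its values were seen, AT4G22410 was set aside, since 84 of the 141 strong windows in protein-coding genes lie in it and the pseudogene AT4G22415 overlaps it. The remaining 57 strong windows in protein-coding genes held 86.2, 96.9, 74.8 and 97.7% in epiRILs 92, 150, 193 and 232, and 747 moderate windows in such genes held 87.6, 91.6, 75.9 and 98.6%. In strong windows over pseudogenes the same epiRILs held 56.4, 115, 64.4 and 107%, and in strong windows in no gene 68.8, 102, 59.6 and 89.7%. Within the moderate class, in members at 0.05 to 0.1, 0.1 to 0.15 and 0.15 to 0.2 in Col-wt, epiRIL 193 held 71.9, 73.8 and 67.9% and epiRIL 92 84.0, 86.9 and 83.8%.

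Beside strong windows, moderate windows were low in epiRIL 193 where their strong neighbours were low. For 268 members, strong windows lay 100 to 500 bp away and did not overlap them. Where epiRIL 193 held 25% or less of these neighbours, 27 of 28 members were at 50% or less in it. Together these 28 members held 7.93% of Col-wt in epiRIL 193, and 61.2, 111 and 122% in epiRILs 92, 150 and 232. Where epiRIL 193 held between 25 and 75% of the neighbours, 107 members held 62.8%. Where it held 75% or more, 133 members held 93.0%. In epiRIL 92 no member had neighbours at 25% or less; 85 members with neighbours between 25 and 75% held 75.4%, and 183 with neighbours at 75% or more held 104%. The 28 members beside emptied neighbours in epiRIL 193 came from few places. Of them, 6 lay in the pseudogene AT4G21360, 5 in the lncRNA gene AT4G07040, 5 in the overlap of AT4G22410 with AT4G22415, 4 in AT4G21630, 3 in AT4G21650, 1 in AT4G22410 alone and 4 in no gene. Members near a strong window can be edges of a larger methylated tract, and how many are was not tested.

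**Figure D3:**
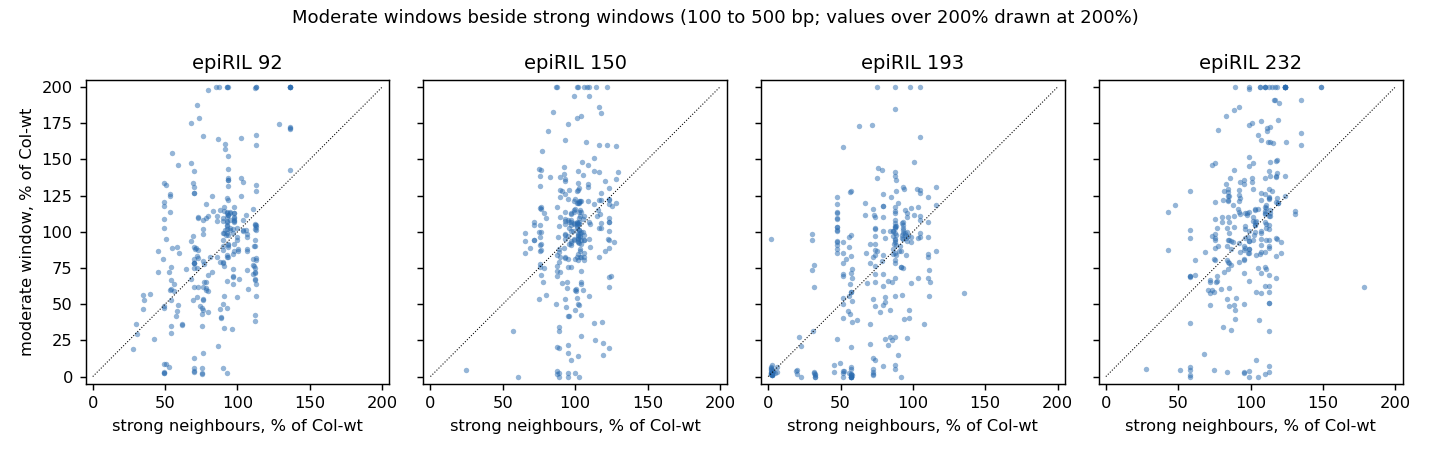
Each point is a moderate window with strong windows 100 to 500 bp away (268 windows), with the level its strong neighbours held on the x axis and its own level on the y axis, both as a percentage of Col-wt; the dotted line marks equal values and values over 200% are drawn at 200%. In epiRIL 193 the windows with nearly empty neighbours lie at the bottom left (27 of 28 at 50% or less), a corner that is almost empty in the other epiRILs.

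Low members were present both away from strong windows and near them. Of the 509 members over 500 bp from any strong window, 70, 82, 139 and 75 were at 25% or less in epiRILs 92, 150, 193 and 232, and of the 341 nearer members 29, 31, 81 and 31. Of the 220 such members in epiRIL 193, 168 lay in protein-coding genes. They were 22.2% of the members in such genes, against 25.9% of all members and 48.6% of the members in no gene. Of the 139 far ones, 37 were among the windows high in Col-wt alone. Along the interval in bins of 25 kb, epiRIL 193 held between 11.2 and 90.5% of the Col-wt level, epiRIL 92 46.8 to 113%, epiRIL 150 56.9 to 140% and epiRIL 232 58.7 to 173%. The lowest bin of epiRIL 193 was the last, with 11 members, where epiRIL 232 was at its highest. EpiRIL 193 also held 54.5% in the 54 members of the sixth bin, where epiRILs 150 and 232 held 102 and 105%. All 4 epiRILs were low at 250 to 275 kb (59.0, 68.7, 45.5 and 58.7% in 30 members). The epiHybrids were below Col-wt there as well, at 71.6, 71.8, 53.0 and 62.9%. At 275 to 300 kb (15 members) the epiRILs held 46.8, 56.9, 51.5 and 68.5%, and the epiHybrids 72.4, 72.5, 56.5 and 62.8%.

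**Figure D4:**
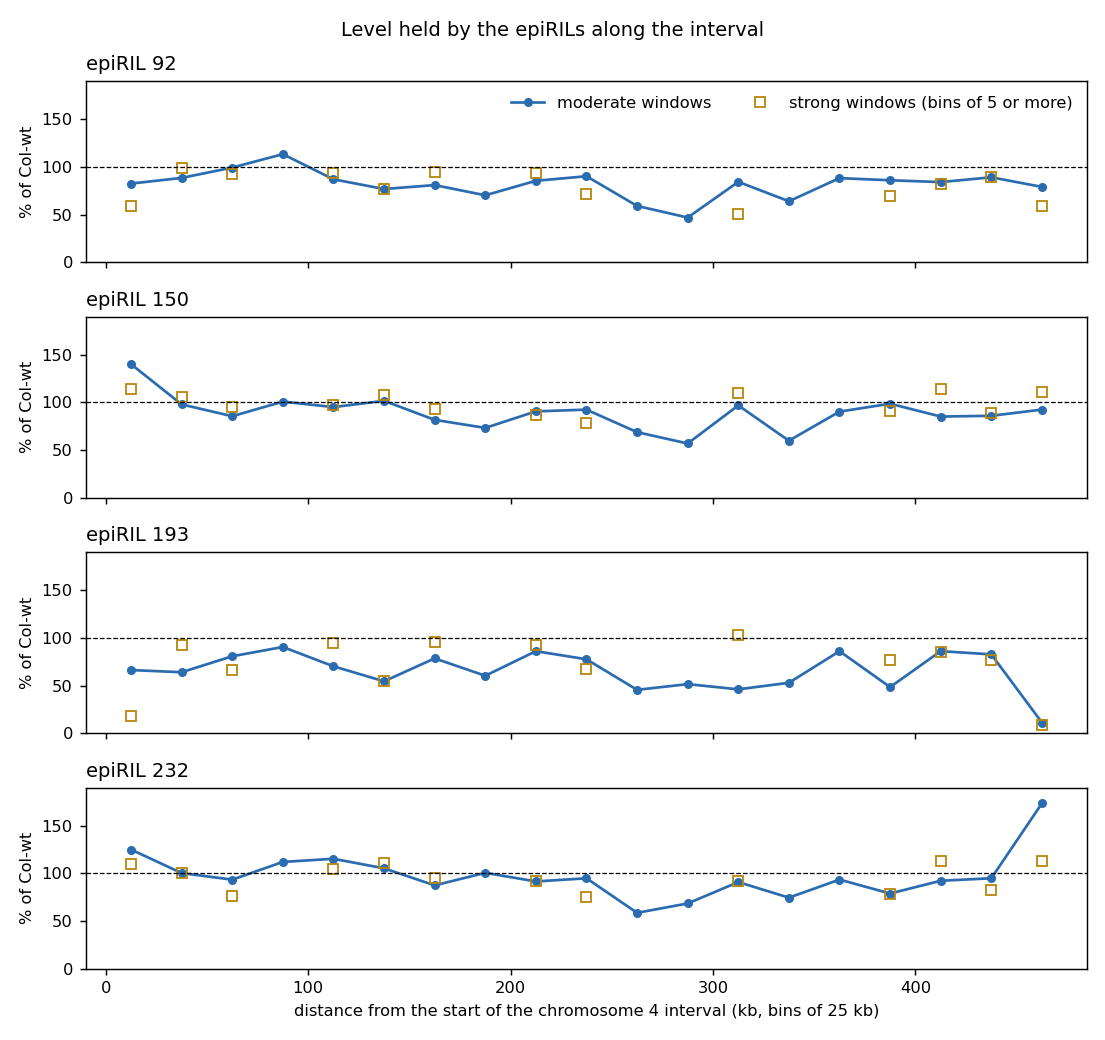
The level held by each epiRIL, as a percentage of Col-wt, is drawn by distance from the start of the interval in bins of 25 kb, for moderate windows (filled points) and for strong windows in bins with at least 5 of them (open squares). EpiRIL 193 falls to 11.2% in the last bin for moderate windows, and its strong windows fall to 18.0% in the first bin and 9.16% in the last.

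By gene, 47 genes held at least 5 members, 44 of them protein-coding, among 81 genes with any. All 4 epiRILs were at 75% or more of Col-wt in 22 of the 47, and so were all 4 epiHybrids. Over all 144 genes with at least 5 windows of any level, 27.1% were at 75% or more in all 4 epiRILs and 25% in all 8 lines. The median gene held 87.9, 97.1, 75.7 and 104% in epiRILs 92, 150, 193 and 232 and 100.4, 99.0, 83.9 and 97.4% in the epiHybrids. Summed over its members, a gene stood at 50% or less in 4 cases in epiRIL 92 and 11 in epiRIL 193, with 0 cases in epiRILs 150 and 232. Over the same 144 genes, the shares at 50% or less were 25, 20.8, 27.8 and 25% in epiRILs 92, 150, 193 and 232. Among the epiHybrids the counts were 0, 0, 1 and 0 in lines 92, 150, 193 and 232 (15.3, 16, 22.2 and 16.7% of all genes); the gene in epiHybrid 193 was AT4G22360. At 150% or more were 1, 0, 0 and 5 genes in the epiRILs (5.56, 6.25, 2.78 and 6.25% of all genes) and 2, 0, 0 and 1 in the epiHybrids (3.47, 4.17, 2.78 and 9.03%).

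Among the genes with the most members, CPL1 read nearly alike in all lines, and APC4, AT4G22120 and EBS varied more. Relative to Col-wt, the other lines held 94.9 to 102% in CPL1 and 83.6 to 98.6% in APC4. They held 99.2 to 115% in AT4G22120 and 82.4 to 107% in EBS. CPL1, a phosphatase of the RNA polymerase II tail, had 37 members with mean levels of 0.102, 0.102, 0.103 and 0.0995 in epiRILs 92, 150, 193 and 232, 0.103, 0.105, 0.1004 and 0.0978 in the epiHybrids and 0.103 in Col-wt, so that the lines were close to each other. APC4, a subunit of the anaphase-promoting complex, had 38 members at 0.0783, 0.0810, 0.0804 and 0.0760 in the epiRILs, 0.0865, 0.0810, 0.0784 and 0.0734 in the epiHybrids and 0.0877 in Col-wt. In AT4G22120, 25 members read 0.114, 0.0985, 0.110 and 0.105 in the epiRILs, 0.104 to 0.106 in the epiHybrids and 0.0993 in Col-wt. EBS, a chromatin reader known to delay flowering, had 23 members at 0.0940 to 0.0981 in the epiRILs, 0.0916 to 0.119 in the epiHybrids and 0.111 in Col-wt, and none of them lay within 500 bp of a strong window.

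NRPB2, which encodes the second-largest subunit of RNA polymerase II, had the most members (49). They read 0.0742, 0.0738 and 0.0718 in epiRILs 92, 150 and 193 but 0.101 in epiRIL 232, 0.0836, 0.0904, 0.0804 and 0.0838 in the epiHybrids and 0.0949 in Col-wt. EpiRIL 232 was thus the only epiRIL above Col-wt there, and epiHybrid 232 lay within the range of the other epiHybrids. The longest run of all, 20 windows at 11539551 to 11540700 on chromosome 4 within NRPB2, read 0.0543, 0.0626, 0.0542 and 0.105 in epiRILs 92, 150, 193 and 232, 0.0693 to 0.0714 in the epiHybrids and 0.0922 in Col-wt.

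In others of the 10 genes with the most members epiRIL 193 was the lowest epiRIL. CRK28, a cysteine-rich receptor-like kinase, had 23 members at 0.0869, 0.115, 0.0394 and 0.125 in epiRILs 92, 150, 193 and 232, 0.119, 0.121, 0.0757 and 0.121 in the epiHybrids and 0.118 in Col-wt. EpiRIL 193 and epiHybrid 193 were the lowest of their kind, and 17 of the 23 members were at 50% or less in epiRIL 193. Its overlapping neighbour CRK29, of the same kinase family, differed: 22 members read 0.145, 0.141, 0.137 and 0.152 in the epiRILs, 0.137 to 0.143 in the epiHybrids and 0.133 in Col-wt. CRK28 and CRK29 belong to one gene family, and how reads that match both were placed is not stated. VAL3, of the VP1/ABI3-like family of repressors of seed genes, had 34 members at 0.0711, 0.0817, 0.0504 and 0.0897 in the epiRILs, 0.0858, 0.0806, 0.0661 and 0.0887 in the epiHybrids and 0.0922 in Col-wt. PRORP3, a protein-only RNase P, had 25 members at 0.0735, 0.0848, 0.0563 and 0.0727 in the epiRILs, 0.0868, 0.0879, 0.0656 and 0.0774 in the epiHybrids and 0.113 in Col-wt, and every other line was below Col-wt. In AT4G21880 (29 members) the level held was 84.9, 97.1, 72.1 and 94.1% in epiRILs 92, 150, 193 and 232. In AT4G21820 (34 members) epiRIL 92, at 74.6%, was close to epiRIL 193, at 73.6%, and epiRILs 150 and 232 held 83.3 and 87.2%.

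**Figure D5:**
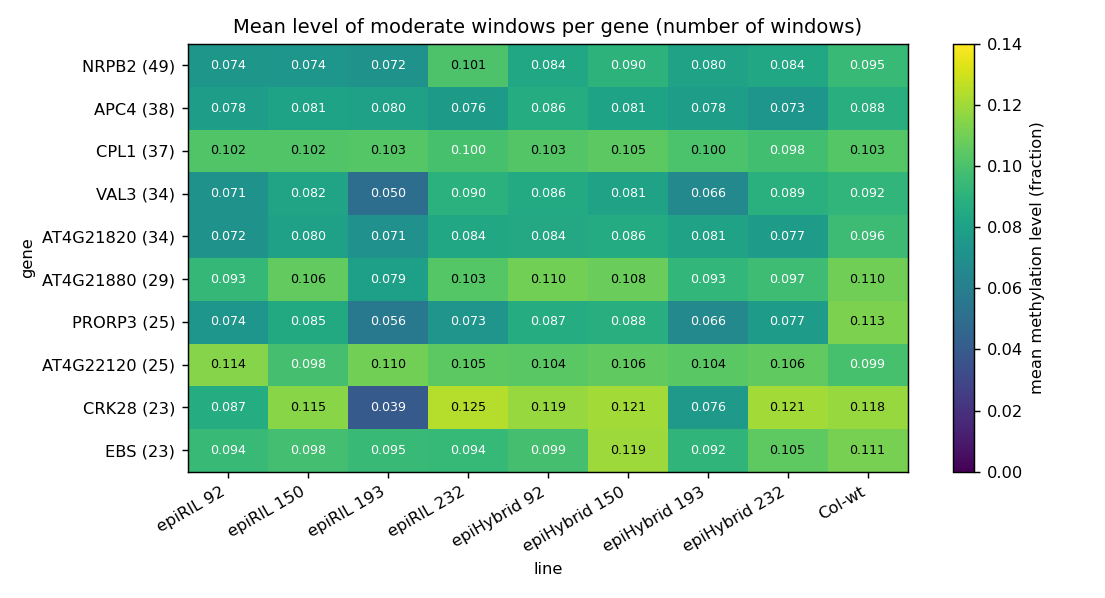
Colours and printed values give the mean methylation level, as a fraction, of the moderate windows in the 10 genes with the most of them (window numbers in brackets), by line with Col-wt at the right. CRK28 is lowest in epiRIL 193 (0.0394) and CPL1 is nearly the same in all lines.

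The remaining runs with the most windows differed in how close the epiRILs lay to Col-wt. The run of 17 windows at 11402801 to 11403900 in CRK29 read 0.146, 0.153, 0.137 and 0.159 in epiRILs 92, 150, 193 and 232 and 0.139 in Col-wt. The run of 15 windows at 11728551 to 11729450 in EBS read 0.0861, 0.101, 0.0861 and 0.103 in the epiRILs and 0.113 in Col-wt. The run of 14 windows at 11605951 to 11606800 in AT4G21880 read 0.0966, 0.107, 0.0818 and 0.109 in the epiRILs and 0.103 in Col-wt, and the run of 12 windows at 11451751 to 11452550 in APC4 read 0.0881, 0.0909, 0.0937 and 0.0934 in the epiRILs and 0.0848 in Col-wt. In the run of 13 windows at 11399601 to 11400450 in CRK28, epiRIL 193 read 0.0432 and epiHybrid 193 0.0804, against 0.121 in Col-wt, and the other lines read 0.106 to 0.133.

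The genes in which epiRIL 193 was at 50% or less are named after their values were seen. They were AT4G21360, AT4G07040, AT4G21650, AT4G22415, AT4G22410, AT4G21630, ATML1, AT4G22360, CRK28, B120 and ENDO3. In AT4G21630, 11 members read 0.115, 0.149, 0.0184 and 0.158 in epiRILs 92, 150, 193 and 232, 0.144, 0.146, 0.0744 and 0.155 in the epiHybrids and 0.147 in Col-wt. EpiRIL 193 was far below the others there, and epiHybrid 193 stood at 50.8% of Col-wt. In AT4G21650, 5 members read 0.0450, 0.1003, 0.00496 and 0.132 in the epiRILs and 0.1001 in Col-wt, and the gene between these, AT4G21640, held 60.9% in epiRIL 193. ENDO3, an endonuclease gene whose 6 members all lay over 500 bp from a strong window, read 0.0607, 0.101, 0.0333 and 0.115 in the epiRILs, 0.101, 0.109, 0.0669 and 0.113 in the epiHybrids and 0.0948 in Col-wt. B120 read 0.0418 in epiRIL 193 and 0.0722 in epiHybrid 193, against 0.120 in Col-wt, while epiRIL 92 read 0.124.

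ATML1, a homeodomain transcription factor of the epidermis, was low in epiRIL 92 as well. Its 7 members read 0.0412, 0.0591, 0.0178 and 0.0891 in epiRILs 92, 150, 193 and 232, 0.0878, 0.0826, 0.0627 and 0.102 in the epiHybrids and 0.116 in Col-wt. EpiRIL 92 also stood at 50% or less in AT4G22360, AT4G21650 and AT4G07040. In AT4G22360 every line lay under Col-wt: 8 members read 0.0385, 0.0519, 0.0274 and 0.0538 in the epiRILs, 0.0577, 0.0563, 0.0413 and 0.0557 in the epiHybrids and 0.0972 in Col-wt. In the pseudogene AT4G21360, 74 of the 80 windows with the cytosines were strong. Its 6 members read 0.119, 0.210, 0.00353 and 0.259 in the epiRILs and 0.158 in Col-wt.

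Levels of 150% of Col-wt or more were found in few genes. In AT4G21520, 20 members read 0.169 in epiRIL 92 and 0.167 in epiRIL 232, against 0.111 and 0.0891 in epiRILs 150 and 193, 0.109 to 0.116 in the epiHybrids and 0.0974 in Col-wt. EpiHybrids 92 and 232 read 0.112 and 0.116 there, near epiHybrids 150 and 193 at 0.109 and 0.114. In AT4G21640, 12 members read 0.0932, 0.157, 0.0713 and 0.176 in epiRILs 92, 150, 193 and 232, and 0.117 in Col-wt. The epiHybrids of the same lines read 0.150, 0.141, 0.0994 and 0.157 there. AT4G21360, AT4G22410 and AT4G22415 were the other genes at 150% or more in epiRIL 232. The 3 members with the highest epiRIL mean relative to Col-wt lay at 11474951 to 11475050 in no gene (0.365 in the epiRILs and 0.107 in Col-wt), at 11447851 to 11447950 in AT4G21520 (0.149 and 0.0589) and at 11716651 to 11716750 in AT4G22120 (0.202 and 0.0803).

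Windows at the limits of the rule read as follows. The 3 members at exactly 0.05 in Col-wt had epiRIL means of 0.0789, 0.00616 and 0.00460, and the 3 windows just under 0.05 had 0.0624, 0.0766 and 0.0249. The 3 members nearest under 0.2 had epiRIL means of 0.159, 0.164 and 0.209. The 3 windows just over 0.2 had 0.178, 0.190 and 0.108.

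The other intervals are given for comparison. In the first of the chromosome 3 intervals, epiRILs 92, 150, 193 and 232 kept 102, 79.8, 90.8 and 74.9% over 1299 moderate windows, their strong windows were at 103, 71.98, 81.4 and 38.7%. In the second, 1578 moderate windows were at 91.6, 71.8, 74.9 and 74.5%, and the strong windows at 99.7, 36.8, 37.5 and 33.2%. In both chromosome 3 intervals epiRILs 150, 193 and 232 held more of the moderate level than of the strong level, and epiRIL 92 held less. On chromosome 4 epiRILs 92 and 193 held more, and epiRILs 150 and 232 held less. A low strong share itself favours a difference above 0, so no common pattern is read from these lines. The difference between intervals was not tested.

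Measurement quality bears on these values. The median member had 37 to 39 cytosines in every line. Members whose least covered line had 30 cytosines or more (492) held 88.8, 94.6, 73.1 and 103% in epiRILs 92, 150, 193 and 232, and those with 10 to under 20 (206) held 78.4, 86.4, 67.8 and 86.4%. In 5749 weakly methylated windows, with a mean under 0.02 over the lines, Col-wt read 0.00819 and the other lines 0.00489 to 0.00605, so Col-wt had the highest background. With each line's background subtracted, the members held 86.8, 92.4, 72.1 and 100.9% in epiRILs 92, 150, 193 and 232. Across the 850 members, Pearson's r between lines was 0.89 for epiHybrids 92 and 150 and 0.82 for epiRIL 193 and epiHybrid 193, against 0.48 for epiRIL 193 and Col-wt. These values describe overlapping windows of pooled libraries, and the range of Col-wt was set by the rule.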

How the data were processed

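The authors deposited, per the file headers, 1 methylation fraction per line and window, with its number of cytosines, for windows of 100 bp every 50 bp in 3 intervals; the 18 libraries had been combined to 9 lines. Tools named in the submitters' processing notes are BS-Seeker2, Bowtie2 and cutadapt, with TAIR10 as the build. How libraries were combined and the read depth are not given in the sources used here, so no intervals or detection limits are given. The 12 columns of mid-parent values and ratios were not used. Windows were placed in RefSeq genes (TAIR10.1) by midpoint; the correlation of gene cover with cytosine number across windows was 0.374 unshifted and 0.326 and 0.329 when genes were shifted by 250 bp either way. A share is the sum of levels over the sum in Col-wt. The members and lists were chosen with earlier results of these data known. Lines were compared with exact sign-flip tests; windows were described. Named were the 6 longest runs, the 10 genes with the most members, the 3 lowest and 3 highest members and those at the limits; other genes were named after their values were seen. Python 3.11.15, pandas 2.3.3 and numpy 2.4.6 were used. Alternatives were the cytosine minimum, level limits, non-overlapping windows, class by neighbours, background, location, and each line left out.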

Additional observations from a re-analysis of the deposited data

Results flagged for a closer look

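Among 34 sets of 4 lines, 5 had a line far from the other 3 by Dixon's test, where chance flags about 1 in 20. EpiHybrid 193 held 82.8% of the Col-wt level in the moderate windows, against 94.0 to 95.8% in the other epiHybrids. In CRK28 epiHybrid 193 read 0.0757, against 0.119 to 0.121 in the others, and in the run of 13 windows of that gene (AT4G21400) 0.0804, against 0.117 to 0.121. In NRPB2 epiRIL 232 read 0.101, against 0.0718 to 0.0742 in the other epiRILs, and in its run of 20 windows (AT4G21710) 0.105, against 0.0542 to 0.0626. The runs lie within these genes and are not separate evidence.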

How the results depend on the processing

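No paired analysis was possible because the table holds 1 pooled column per line, although the labels number the libraries of each line 1 and 2. Shares of Col-wt moved by less than the SD over lines in 89 of 96 comparisons. The others were epiRIL 193 at 83.9% by the median over windows; epiHybrids 92, 150 and 232 at 103, 109 and 100.2% with windows chosen on epiHybrid 150; and the same epiHybrids at 105, 103 and 102% against the median of the other epiHybrids. These 2 settings were chosen after seeing the data. The order of the 4 epiRILs, 232, 150, 92 and 193 from high to low, was the same in each of these settings. With windows chosen on epiRIL 150, epiRIL 150 was above epiRIL 232, at 109 against 108% of Col-wt. Counts at 50% or less depend on the number and coverage of windows. With 20 cytosines (644 windows) they were 132, 85 and 76 in epiRILs 92, 150 and 232 and 48, 59, 107 and 54 in epiHybrids 92, 150, 193 and 232. With classes from neighbouring windows (987 windows) they were 264 and 260 in epiRILs 150 and 232 and 257, 244, 288 and 234 in the epiHybrids. Over 500 bp from strong windows (509 windows) they were 165 in epiRIL 193 and 103 in epiHybrid 193. Against the median of the other epiHybrids they were 127, 86 and 82 in epiRILs 92, 150 and 232 and 41, 50, 103 and 53 in the epiHybrids. Apart from the window numbers, the cause was not tested. Both tests over lines kept their sign in the 27 alternatives, with exact sign-flip p from 0.25 to 0.75, and none could pass 0.05. With each line left out, the epiHybrid minus epiRIL difference was 0.00375 to 0.00902 and the moderate minus strong difference 7.71 to 18.1 points. Unknown read depth limits every value.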
